A study of Mus musculus with 9 samples.

Results

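Transcripts of 9 transcription factor genes that set the identity of cortical projection neurons were followed in RNA that co-precipitated with CELF2: the deep-layer genes Bcl11b, Tbr1, Fezf2 and Sox5 and the upper-layer genes Cux1, Cux2, Pou3f2, Pou3f3 and Rorb. They were chosen by name, as all 72 RefSeq transcript rows of these 9 genes among 107384 rows, which belong to 27178 genes. The rule used no measured value, but the genes were chosen with earlier results of these data known. Each gene was read as the sum of its rows and then row by row. CELF2 is an RNA-binding protein of the CELF family that acts in splicing in the nucleus and on mRNA stability and translation in the cytoplasm.

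RNA immunoprecipitation followed by sequencing (RIP-seq) recovers the RNA that is held by an antibody through its target protein. All 9 libraries came from the cytoplasmic fraction of cortex from P0 mice heterozygous for the Celf2 knockin (KI) allele encoding p.R493H. They comprised 3 CELF2 RIP libraries (10 μg rabbit anti-CELF2 antibody, 3 hours), 3 IgG RIP libraries (10 μg normal rabbit IgG, 3 hours) and 3 input libraries, which were lysate RNA without precipitation. No WT library was analysed, so the values describe KI cytoplasm and carry no comparison of genotypes. The lysate mixes all cortical cell types, so a low level in it cannot tell fewer cells of a type from less RNA per cell. Which cells a precipitated RNA came from was not measured.

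Projection neurons of the neocortex are born in sequence, with deep-layer neurons made before upper-layer neurons. FEZF2 and BCL11B (CTIP2) direct the subcerebral output neurons of layer 5, TBR1 directs the corticothalamic neurons of layer 6 and restrains the subcerebral program, and SOX5 times the production of deep-layer subtypes. CUX1, CUX2, POU3F2 (BRN2) and POU3F3 (BRN1) act in upper-layer neurons and their progenitors, and RORB marks the input neurons of layer 4. At P0 the mRNAs of all these factors are made in postmitotic neurons, and several are also made in interneurons, striatal neurons or progenitors.

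Total estimated counts ranged from 15919600 to 20052716 in CELF2 RIP, from 17365561 to 28773130 in IgG RIP and from 69125700 to 105116427 in input. In IgG RIP, 34.9%, 33.0% and 10.8% of the counts fell on a single ribosomal RNA precursor row, compared with at most 1.76% in any other library, so these 3 libraries carried fewer mRNA counts than their totals show. Levels are given as CPM, the count of a gene scaled to a fixed library total, here that of the tested protein-coding genes after TMM scaling, and were not compared between genes because transcript lengths were not used here. A gene was called when the edgeR quasi-likelihood test gave a Benjamini-Hochberg adjusted p (hereafter adjusted p) under 0.01 over all 15267 tested genes and a change of at least 2-fold. All 9 genes passed the filter on low counts. By their labels the 3 libraries of a group are biological replicates. Input was an aliquot of the lysate used for precipitation, so libraries of different groups need not be independent of each other. The mRNA of Celf2 averaged 638 ± 164 CPM (SD, n = 3) among CELF2 RIP libraries, 233 ± 33.4 among IgG RIP libraries and 296 ± 14.9 among inputs.

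Tbr1 and Bcl11b were called higher in CELF2 RIP than in both controls, and no member was called lower than both. This pattern depended on the processing: with DESeq2 size factors, DESeq2's Wald test, upper quartile scaling, total counts, coding and noncoding genes, no filter or only the 2 groups compared, 0 members were higher than both controls and 1, Fezf2, was lower than both. Rorb and Sox5 were called higher than input alone, Fezf2 was called lower than input, and Cux1, Cux2, Pou3f2 and Pou3f3 were not called in any comparison. Across all tested genes, 13.4% were called higher and 13.6% lower in CELF2 RIP than in IgG RIP, 14.6% higher and 15.5% lower than in input, and 7.58% higher and 9.54% lower than in both. The member counts of 2 higher and 0 lower against IgG, 4 higher and 1 lower against input, and 2 higher against both are to be read beside these shares, and rest on only 9 genes. The median log2 change of the members was 0.55 against IgG RIP, beside -0.06 for all tested genes, and 0.74 against input, beside 0.19.

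**Figure D1:**
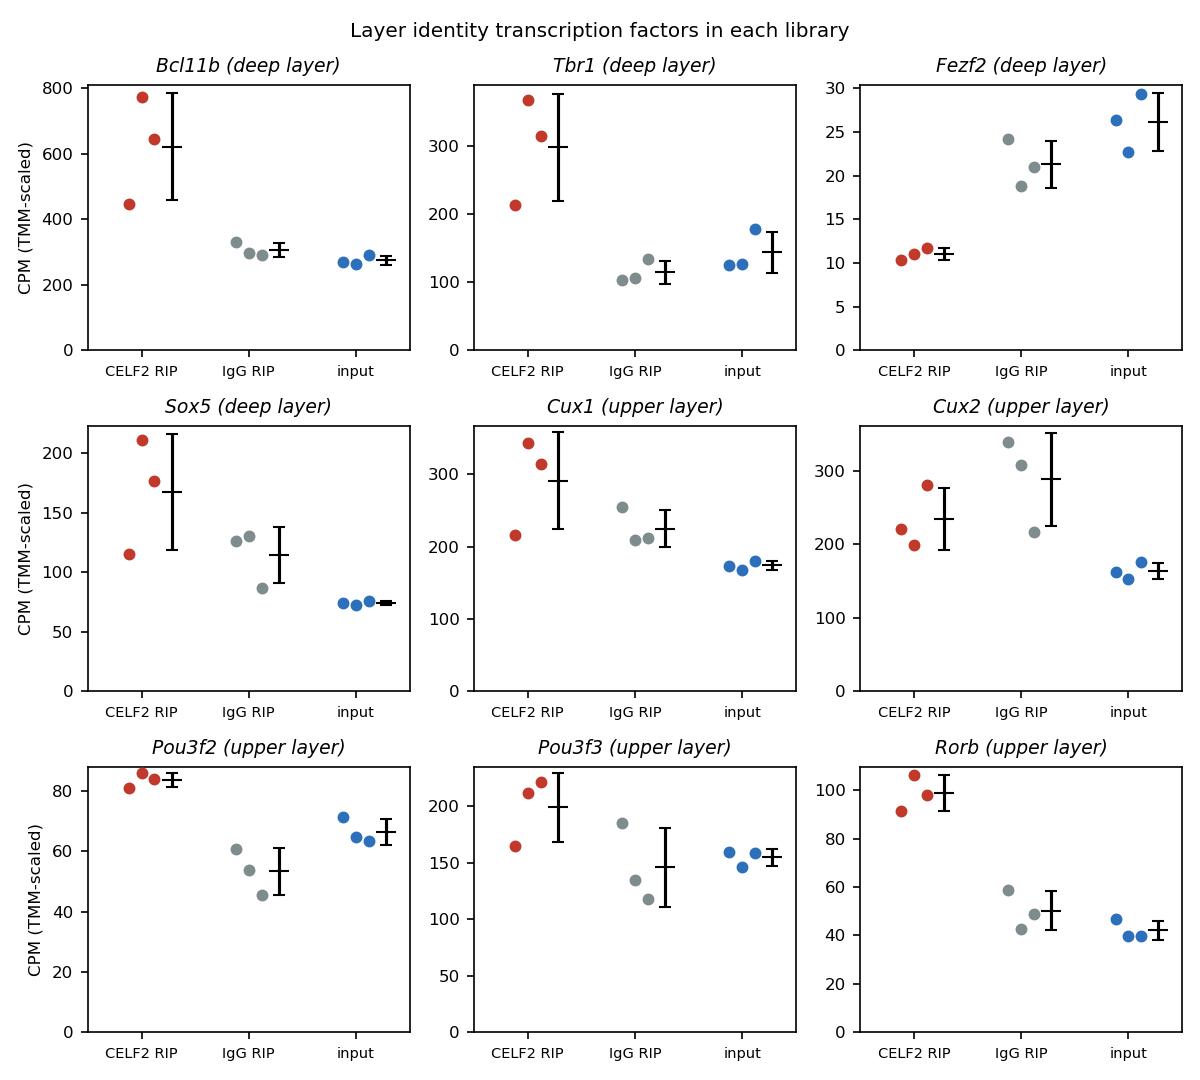
CPM of each of the 9 genes (y axis, linear from 0) in the 3 CELF2 RIP, 3 IgG RIP and 3 input libraries. Points are libraries in replicate order, and the bar beside them is the mean with its SD. The CELF2 RIP points of Bcl11b, Tbr1, Pou3f2 and Rorb lie above all control points and those of Fezf2 lie below them.

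Tbr1 (chromosome 2, 61802863-61814114, GRCm38.p6) had the largest rise of the 9 genes over IgG RIP. It stood at 213, 366 and 314 CPM in the CELF2 RIP libraries, 103, 106 and 134 CPM in IgG RIP, and 126, 127 and 178 CPM in input. Every CELF2 RIP library lay above all 6 control libraries, whereas the IgG RIP and input values overlapped. The rise was 2.60-fold over IgG RIP (log2 1.38 ± 0.22 SE, adjusted p = 0.00038) and 2.07-fold over input (log2 1.05 ± 0.21, adjusted p = 0.0017). Between IgG RIP and input no difference of Tbr1 passed the test (log2 -0.33, 95% interval -0.80 to 0.15). The call over IgG RIP held in all 9 fits that left out 1 library, but the call over input fell below 2-fold without CELF2 RIP replicate 2 (log2 0.87), input replicate 1 (0.85) or input replicate 2 (0.85), and without either of these inputs its adjusted p was 0.016.

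Bcl11b (chromosome 12, 107910403-108004145), which encodes the zinc finger factor CTIP2, was at 447, 772 and 646 CPM in CELF2 RIP. It was at 331, 299 and 291 CPM in IgG RIP and at 271, 265 and 290 CPM in input. All CELF2 RIP values were above the controls, and the lowest, in replicate 1, was in the CELF2 RIP library that was lowest for 8 of the 9 genes, all but Cux2. The rise was 2.03-fold over IgG RIP (log2 1.02 ± 0.17, adjusted p = 0.00064) and 2.26-fold over input (log2 1.18 ± 0.17, adjusted p = 0.00022). The change over IgG RIP sat at the 2-fold limit, and the call ended in 6 of the 9 fits that left out a library: CELF2 RIP replicate 2 (log2 0.83) or replicate 3 (0.99), IgG RIP replicate 3 (0.98), or any of the 3 input libraries (0.91 each). It also ended with the replicate number as a block (log2 0.997). Without CELF2 RIP replicate 2 the change over input was 0.99 and was not called.

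Fezf2 (chromosome 14, 12338992-12346803), the master regulator of subcerebral neurons, moved in the opposite direction to Bcl11b, a gene that acts downstream of it in layer 5. Its CELF2 RIP values were 10.3, 11.0 and 11.7 CPM. Its IgG RIP values were 24.2, 18.8 and 20.9 CPM, and its input values were 26.4, 22.7 and 29.3 CPM. The CELF2 RIP libraries were close together and all below the 6 controls. Fezf2 fell by 1.25 on the log2 scale against input (± 0.15 SE, adjusted p = 7.5e-05), a 2.37-fold difference that was called in all 9 leave-one-out fits. Against IgG RIP the difference was 1.94-fold (log2 -0.96 ± 0.16, adjusted p = 0.0005), just short of the 2-fold limit, and it passed that limit in 5 of the 9 leave-one-out fits (without CELF2 RIP replicate 3, IgG RIP replicate 2 or any input library), with a range of -1.06 to -0.85.

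Sox5 (chromosome 6, 143828425-144782287), an SRY-box factor without a transactivation domain, was at 115, 211 and 177 CPM in CELF2 RIP and 126, 130 and 87.2 CPM in IgG RIP, which overlapped. In input it was at 74.4, 72.8 and 76.0 CPM, below every precipitated library of either kind. It was called higher than input (2.25-fold, log2 1.17 ± 0.22, adjusted p = 0.00095), a call that ended without CELF2 RIP replicate 2 (log2 0.97). The change over IgG RIP was not called (log2 0.55, 95% interval 0.07 to 1.03, adjusted p = 0.051). IgG RIP itself was above input with a log2 change of 0.62 (adjusted p = 0.042), so IgG RIP lay between the other groups in this fit. Curated rows held only 15.5% to 57.8% of the Sox5 counts in a library, and the rest fell on predicted rows. With curated rows only, the edgeR fit put IgG RIP over input at -0.65 (adjusted p = 0.17), so the order of these 2 groups depends on the rows summed.

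Among upper-layer genes, Rorb (chromosome 19, 18930609-19111196), a retinoid-related orphan receptor, had the largest rise. It was at 91.5, 106 and 98.0 CPM in CELF2 RIP, 58.7, 42.8 and 48.9 CPM in IgG RIP, and 46.7, 39.8 and 39.96 CPM in input. CELF2 RIP lay above all controls, and IgG RIP overlapped input. The change was 2.34-fold over input (log2 1.23 ± 0.14, adjusted p = 4.6e-05), called in all 9 leave-one-out fits. Over IgG RIP it was 1.97-fold (log2 0.97 ± 0.14, adjusted p = 0.00023), which missed the 2-fold limit in the full fit and passed it without CELF2 RIP replicate 1 (1.03) or IgG RIP replicate 1 (1.10).

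The POU homeodomain genes Pou3f2 and Pou3f3, close paralogs without introns, showed smaller changes. Pou3f2 (chromosome 4, 22482095-22488366) was at 81.0, 85.9 and 84.2 CPM in CELF2 RIP, 60.8, 53.9 and 45.4 CPM in IgG RIP, and 71.4, 64.8 and 63.3 CPM in input. Its CELF2 RIP values were above all controls and its IgG RIP values below all inputs. On the log2 scale Pou3f2 changed by 0.65 ± 0.13 against IgG RIP (adjusted p = 0.0015, under 2-fold) and 0.33 over input (95% interval 0.06 to 0.61, adjusted p = 0.040). Pou3f3 (chromosome 1, 42695768-42700210) was at 164, 211 and 221 CPM in CELF2 RIP, 185, 135 and 118 CPM in IgG RIP, and 160, 146 and 159 CPM in input. CELF2 RIP overlapped IgG RIP for Pou3f3, and neither change was called (log2 0.45, adjusted p = 0.048 over IgG RIP, and 0.36, adjusted p = 0.091 over input).

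The cut-like homeobox genes did not pass in either comparison. Cux1 (chromosome 5, 136248135-136567590) was at 217, 344 and 314 CPM in CELF2 RIP, 255, 209 and 212 CPM in IgG RIP, and 174, 168 and 181 CPM in input. CELF2 RIP overlapped IgG RIP (log2 0.37, 95% interval 0.01 to 0.74, adjusted p = 0.075) and was above input by less than 2-fold (log2 0.74, adjusted p = 0.0027). Cux2 (chromosome 5, 121857962-122050415) was the only member other than Fezf2 whose level over IgG RIP was below 0 on the log2 scale. It was at 222, 200 and 281 CPM in CELF2 RIP, 340, 308 and 218 CPM in IgG RIP, and 163, 153 and 176 CPM in input. CELF2 RIP and IgG RIP overlapped (log2 -0.30, 95% interval -0.70 to 0.09, adjusted p = 0.18), and both lay above input in every library. Cux2 had the largest change of the 9 genes between IgG RIP and input (1.76-fold, log2 0.82, adjusted p = 0.0054, under 2-fold). No member was called between IgG RIP and input, where 6.79% of genes were called higher and 5% lower.

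All 3 CELF2 RIP libraries were above all 3 IgG RIP libraries for Bcl11b, Tbr1, Pou3f2 and Rorb, and below them for Fezf2, beside 30% of tested genes above and 27.4% below. The same 4 genes were also above all 6 controls, and Fezf2 below them, beside 25.2% and 19.9% of tested genes. With 9 genes, these counts are a description. Of the 4 deep-layer genes, 2 were called higher over both controls, and of the 5 upper-layer genes, 0 were, beside 7.58% of tested genes. This contrast rests in part on the 2-fold limit over IgG RIP, where Bcl11b was at 2.03-fold and the upper-layer gene Rorb at 1.97-fold. With total counts, DESeq2 size factors or upper quartile scaling, 0 of the 9 genes were called higher over both controls. The difference between the layer groups was not tested.

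**Figure D2:**
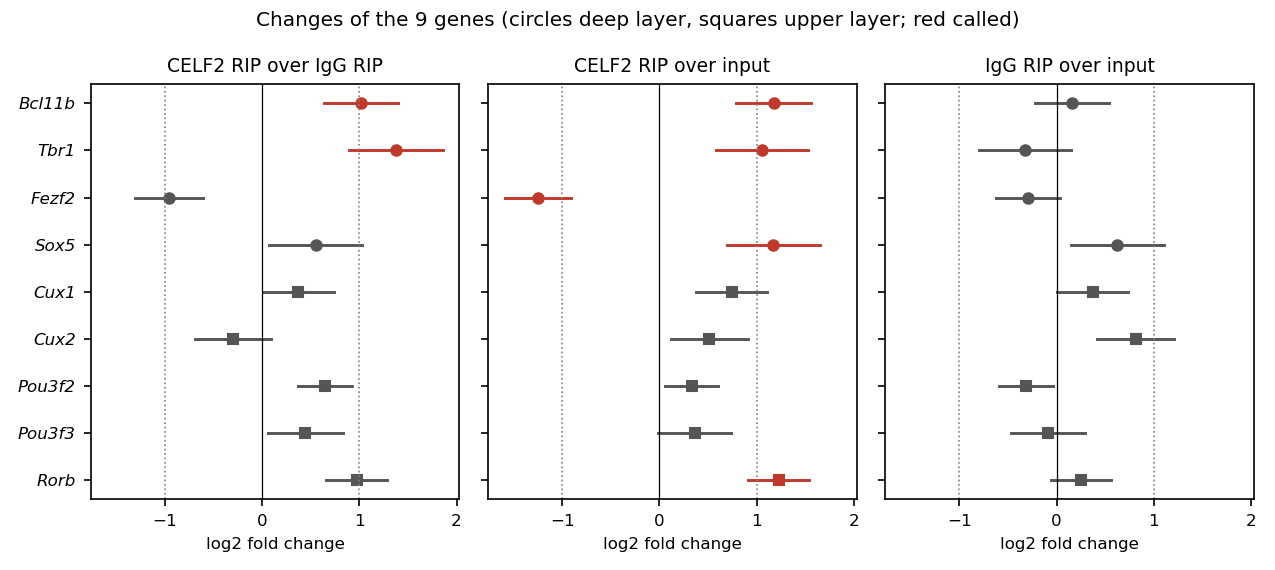
Log2 fold change (x axis) of the 9 genes for CELF2 RIP over IgG RIP, CELF2 RIP over input and IgG RIP over input, with 95% intervals from the edgeR fit. Circles are deep-layer and squares upper-layer genes, red marks called genes, and dotted lines mark 2-fold; Tbr1 and Bcl11b are red in both CELF2 RIP panels and no gene is red between IgG RIP and input.

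The size of a change over a control depends on how the libraries are scaled, so the position of each gene against all other genes was also read. The median of all tested genes over IgG RIP was -0.06 with TMM and -0.42 with scaling by total counts. Relative to that median, over 5 scalings, Tbr1 ranged from 1.42 to 1.49 over IgG RIP, Bcl11b from 1.06 to 1.14, Rorb from 1.03 to 1.11, Cux2 from -0.25 to -0.15 and Fezf2 from -0.90 to -0.82. Relative to the median over input, Tbr1 ranged from 0.64 to 0.86, Bcl11b from 0.77 to 0.98, and Fezf2 from -1.64 to -1.44. Rescaling shifts all genes nearly alike, so subtracting the median removes most of it. These ranges give a position among the genes and are no check of stability. The 2-fold calls moved with the scaling: with total counts 0 members were called higher in either comparison, Tbr1 was at 0.99 over IgG RIP, and Fezf2 was called lower than both controls.

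Ratios of estimated counts within a library do not depend on scaling. The Tbr1 to Fezf2 ratio was 20.6, 33.3 and 26.8 in the CELF2 RIP libraries. It was 4.28, 5.64 and 6.40 in the IgG RIP libraries and 4.77, 5.59 and 6.07 in the inputs. The lowest CELF2 RIP ratio exceeded the highest control ratio, and the mean was 4.94 times that of IgG RIP and 4.91 times that of input. Tbr1 and Fezf2 had the largest rise and the largest fall among the members over IgG RIP. The separation of their ratio therefore follows from the choice of this pair and is a description only. The Bcl11b to Fezf2 ratio averaged 56.2 ± 13.4 for CELF2 RIP, 14.5 ± 1.19 for IgG RIP and 10.6 ± 0.94 for input (SD, n = 3). The summed deep-layer counts over the summed upper-layer counts were 1.01, 1.44 and 1.15 in the CELF2 RIP libraries, 0.65, 0.74 and 0.83 in the IgG RIP libraries, and 0.81, 0.85 and 0.93 in the inputs. Every CELF2 RIP library lay above all 6 controls, and IgG RIP overlapped input. The deep-layer sum was mostly Bcl11b and Tbr1 (means of 622 and 298 CPM in CELF2 RIP), with Sox5 adding 168 CPM and Fezf2 11.0 CPM. The ratio thus follows mainly Bcl11b and Tbr1 rather than the layer group. These values are parts of a count sum and do not compare transcript levels between genes. The Tbr1 to Cux2 ratio was 1.30 ± 0.47 in CELF2 RIP and 0.87 ± 0.13 in input and overlapped between them, whereas it was 0.42 ± 0.17 in IgG RIP.

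**Figure D3:**
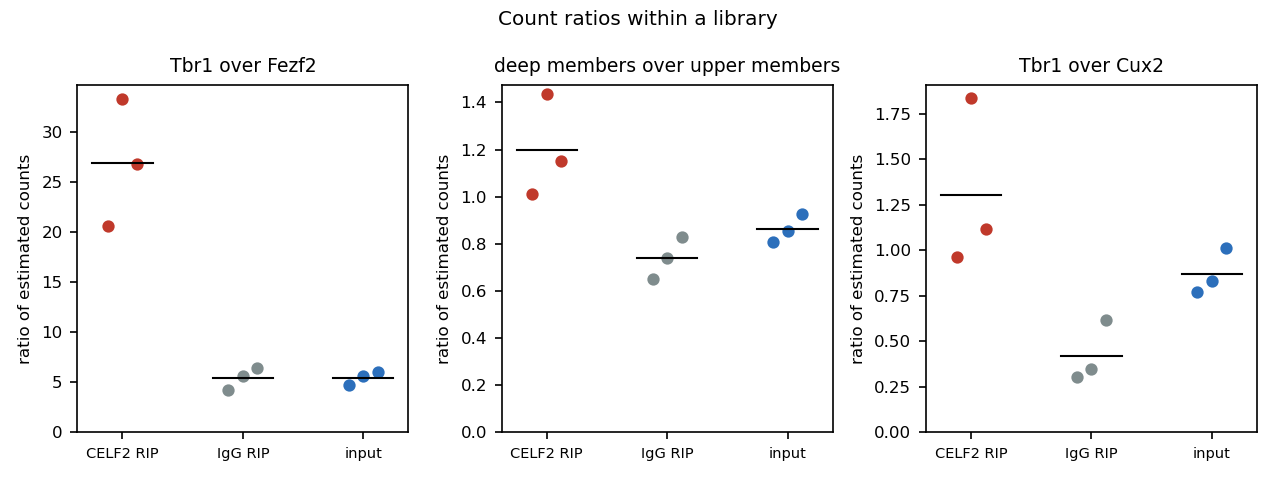
Ratios of estimated counts (y axis, linear from 0) within each CELF2 RIP, IgG RIP and input library for Tbr1 over Fezf2, the 4 deep-layer over the 5 upper-layer genes, and Tbr1 over Cux2. Points are libraries and lines are means. The CELF2 RIP ratios of Tbr1 over Fezf2 lie between 20.6 and 33.3 and all control ratios of this pair are at most 6.40. This pair has the largest rise and the largest fall over IgG RIP among the members, so its separation follows from that choice.

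Transcript rows were tested in a separate edgeR fit over 50417 rows, of which 53 of the 72 member rows passed the filter and 19 did not. Splitting a gene's reads among similar rows is an estimate, and 18 member rows held under 1 count in one replicate and at least 100 in another of the same group (7 of Sox5, 6 of Cux2, 3 of Bcl11b, 1 of Cux1 and 1 of Rorb). In CELF2 RIP over IgG RIP, 2 member rows were called higher and 1 lower, where 4.49% and 1.78% of all rows were. The rows higher were NM_009322.3 of Tbr1 (log2 1.45 ± 0.23, adjusted p = 0.0061), which held 98.0% of that gene's counts in CELF2 RIP, and NM_001243163.1 of Sox5 (log2 1.74 ± 0.29, adjusted p = 0.0069). In CELF2 RIP against input 0 were called higher and 2 lower, where 0.593% and 3.91% of all rows were: the single row of Fezf2 (log2 -1.83) and NM_198602.3 of Cux1. Between IgG RIP and input, 0 member rows were higher and 2 lower (NM_008899.2 of Pou3f2 and XM_006516111.3 of Bcl11b), where 1.02% and 4.62% were. On the gene-level scale, chosen after seeing the data, these 2 rows were at -0.32 (adjusted p = 0.17) and -0.47 (adjusted p = 0.091) and were not called, and the same Pou3f2 counts were at -0.32 in the gene fit. Every one of these 7 calls ended in at least 3 of the 9 leave-one-out fits, with adjusted p of up to 0.046 in those fits (1 call, of the Pou3f2 row, ended without IgG RIP replicate 3 on the 2-fold limit alone). With the replicate block the adjusted p of the Fezf2 row over input was 0.0109, that of the Sox5 row over IgG RIP 0.036, and those of the Pou3f2 and Bcl11b rows 0.0145 and 0.024, so these 4 calls ended; the Tbr1 row kept its call. The row fit has its own TMM scale: for the single-row genes Fezf2, Pou3f2 and Pou3f3 it shifted the change over input by about -0.59 relative to the gene fit and that over IgG RIP by 0.10 to 0.11, and that of IgG RIP over input by -0.70 to -0.69.

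The Sox5 row NM_001243163.1 held 441, 508 and 506 estimated counts in the CELF2 RIP libraries. The IgG RIP libraries had 202, 187 and 109 and the inputs 1460, 1838 and 1581. Its share of Sox5 counts was 24.9% ± 6.09 in CELF2 RIP, 11.1% ± 2.82 in IgG RIP and 30.9% ± 2.93 in input (SD, n = 3). The CELF2 RIP share was therefore above every IgG RIP share and overlapped input. No usage test was called for Sox5, Bcl11b or Cux2 (adjusted p of 1 over IgG RIP for Sox5 and Bcl11b and 0.52 for Cux2).

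Cux1, whose gene sum was not called, held the only member row called lower than both controls in the row fit. NM_198602.3 had 77, 35 and 35 counts in the CELF2 RIP libraries, 700, 257 and 904 in the IgG RIP libraries, and 4435, 5072 and 4449 in the inputs. It made up 2.84%, 0.78% and 0.99% of the Cux1 counts in CELF2 RIP (95% Wilson intervals 2.28 to 3.54, 0.56 to 1.09 and 0.72 to 1.38, counting error only), 17.2%, 12.2% and 30.6% of those in the IgG RIP libraries, and 40.5%, 33.3% and 39.8% of those in the inputs. The groups did not overlap and were ordered CELF2 RIP, IgG RIP, input from low to high. The row fell by 3.38 on the log2 scale against IgG RIP (± 0.51 SE, adjusted p = 0.0045) and by 4.60 against input (adjusted p = 0.0020), whereas the difference between IgG RIP and input did not pass the test (log2 -1.23, adjusted p = 0.12). With the replicate block the adjusted p was 0.0123 against IgG RIP, which ended that call, and 0.0083 against input.

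Usage of rows, tested with edgeR diffSpliceDGE and the Simes method, differed for Cux1 over IgG RIP (adjusted p = 0.0063) and over input (adjusted p = 0.0010). These were 1 of 6 multi-row members over IgG RIP, beside 2.26% of genes tested, and 2 of 6 over input (Cux1 and Rorb), beside 1.34%. The Rorb call draws on a row that passed the filter only through CELF2 RIP, as given below. With the replicate number as a block the Cux1 usage gave adjusted p = 0.023 over IgG RIP, which ended the call, and 0.0048 over input. The Cux1 call over IgG RIP was also lost without CELF2 RIP replicate 1 (adjusted p = 0.013) or 2 (0.057), IgG RIP replicate 3 (0.011) or any input library (0.035 to 0.043), and that over input without CELF2 RIP replicate 2 (0.022) or any input library (0.016 to 0.028). The curated rows NM_001291233.1, NM_009986.4 and NM_001291234.1 together made up most of Cux1 in CELF2 RIP, with mean shares of 29.8%, 30.6% and 25.9%, beside 21.7%, 10.9% and 9.72% in input. In IgG RIP their mean shares were 19.4%, 9.54% and 22.6%. The IgG RIP shares of NM_001291233.1 (5.49% to 36.5%) and NM_001291234.1 (9.21% to 42.8%) spanned those of CELF2 RIP.

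**Figure D4:**
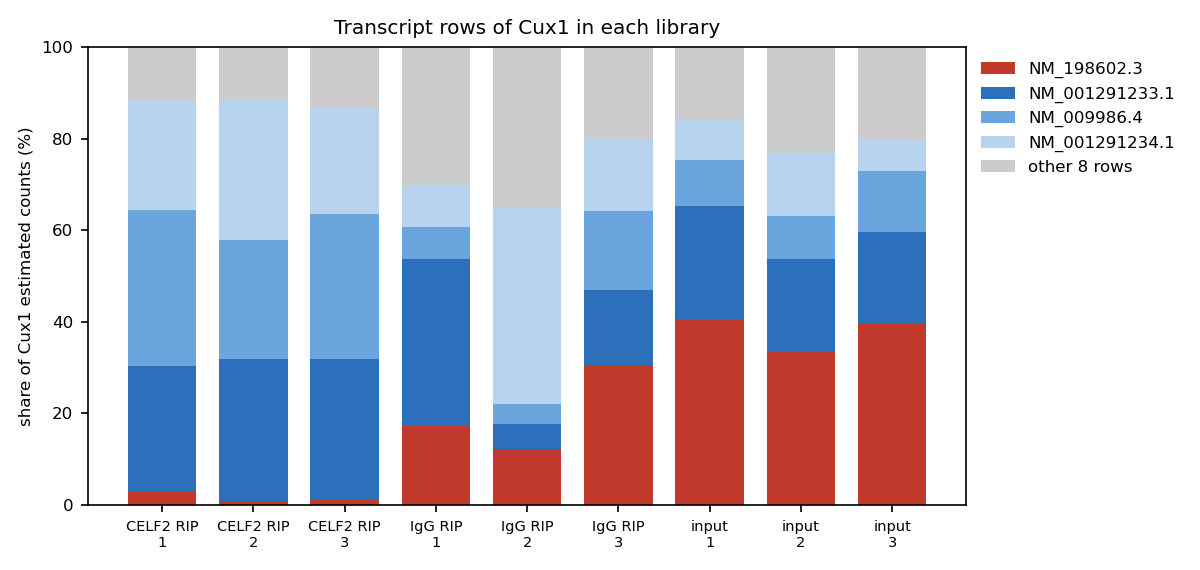
Share of Cux1 estimated counts (y axis, percent) held by NM_198602.3 (red), by 3 further curated rows (blues) and by the other 8 rows (grey) in each of the 9 libraries. The red share is at most 2.84% in CELF2 RIP and at least 33.3% in input.

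The Cux1 locus is known to make both the homeodomain protein and CASP, a Golgi protein that lacks the homeodomain; which row encodes which product was not analysed here. Without NM_198602.3, a row left out after its values were seen, the Cux1 sum was at 0.67 over IgG RIP and 1.41 over input on the log2 scale; a higher value is fixed by the choice of the row, so no test is given.

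Rorb had 3 curated rows. NM_001043354.2 held the bulk of its counts, with shares of 74.5% ± 6.48 in CELF2 RIP, 100% in IgG RIP after rounding and 99.6% ± 0.37 in input (SD, n = 3). NM_146095.4 held 13.8, 203.6 and 214.2 estimated counts in CELF2 RIP and at most 0.073 in any of the 6 control libraries. Set against a floor of 3 counts per control library, its mean CPM was 51.3-fold that of IgG RIP and 278-fold that of input. The counts are estimated splits among the rows of the gene, so these folds are no lower bound. They rest mainly on replicates 2 and 3 and on a row that passed the filter only through CELF2 RIP, so they are a description. The row was not called (adjusted p = 0.052 over IgG RIP and 0.045 over input), and these values draw on the same selection. The Rorb gene sum rose 1.97-fold over IgG RIP and 2.34-fold over input. NM_001289921.1, which did not pass the filter, held 356.6, 135.8 and 0 counts in CELF2 RIP, 0 in IgG RIP and at most 23.2 in input. Both minor rows were thus uneven among the CELF2 RIP libraries. Of the 2 tested rows of Rorb, NM_146095.4 passed the filter only through the CELF2 RIP libraries, where it was high. The usage test of Rorb draws on that selection, so it cannot decide whether usage differed. With rows of at least 2 CPM, Rorb gave no usage result. The adjusted p of Rorb usage was 0.0079 over input, which was called, and 0.0133 over IgG RIP, which was not. With the replicate block the value over input was 0.0147, which ended the call, and it was also lost without CELF2 RIP replicate 2 (0.078), CELF2 RIP replicate 3 (0.057) or any input library (0.058 to 0.061).

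Other regulators of projection neuron identity, a list of 36 genes all of which were tested, were read beside the 9. Over IgG RIP 8 were called higher and 0 lower, with a median log2 fold change of 0.60; over input 7 were higher and 1 lower, with a median of 0.53. The shares of 22.2% and 19.4% called higher stand beside 13.4% and 14.6% of all tested genes. With total counts the counts were 3 higher and 1 lower over IgG RIP and 0 higher and 3 lower over input, with upper quartile scaling 3 and 2 were higher, and with glmTreat 1 and 0. Over both controls 4 were higher, and 0 with total counts, upper quartile scaling, coding and noncoding genes, glmTreat or only the 2 groups compared; without CELF2 RIP replicate 2 it was 1. The SoxC genes Sox4 (log2 1.48 over IgG RIP, 1.18 over input) and Sox11 (1.24, 1.11), which act in newborn neurons, were called over both controls. So were Nfia (1.19, 1.21), a nuclear factor I gene, and Zbtb18 (1.17, 1.10), a transcriptional repressor. Lmo3 (1.66, adjusted p = 1.1e-05) and the layer 5 factor Etv1 (1.47, adjusted p = 5e-05) were called over IgG RIP and were each at 0.99 over input.

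None of the regulators was called lower than IgG RIP by the main test, but 1 was with total counts, upper quartile scaling, coding and noncoding genes or no filter, and without IgG RIP replicate 3 or any input library. The lowest were the LIM-domain-binding cofactor Ldb1 (log2 -0.91, adjusted p = 0.00082, under 2-fold), Tshz2 (-0.20), Neurod6 (-0.14), Emx1 (-0.09), Zfpm2 (-0.05) and Bhlhe22 (-0.01), and the 5 after Ldb1 had adjusted p of 0.33 or more. The single gene called lower than input, the helix-loop-helix inhibitor Id2 (log2 -1.19), was also lower in IgG RIP than in input (-1.58), and it was 0.40 over IgG RIP (adjusted p = 0.074). Of the paralogs of Pou3f2 and Pou3f3, Pou3f4 was called over IgG RIP (1.13) and Pou3f1 was at 0.18.

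Of 20 layer markers that are not transcription factors, 4 were called higher and 1 lower than both controls, beside 7.58% and 9.54% of all tested genes. The 4 became 0 with total counts, coding and noncoding genes or glmTreat, 1 with upper quartile scaling and 2 with only the 2 groups compared, whereas 1 was lower in every alternative run. Syt6, a synaptotagmin of layer 6, was at 83.7, 121 and 123 CPM in CELF2 RIP and at most 50.2 CPM in any control library (log2 1.57 over IgG RIP, 1.19 over input). Crim1, a marker of corticospinal neurons, reached 1.48 and 1.26, and the netrin receptor Unc5c 1.25 and 1.36. Pcp4, a calmodulin regulator of deep-layer neurons, was at 4.00, 6.08 and 4.37 CPM in CELF2 RIP, below the lowest control value of 16.6 CPM (log2 -2.45 against IgG RIP, adjusted p = 3.7e-05, and -1.88 against input). Plxnd1 (-0.31) and Cplx3 (-0.38) were not called.

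**Figure D5:**
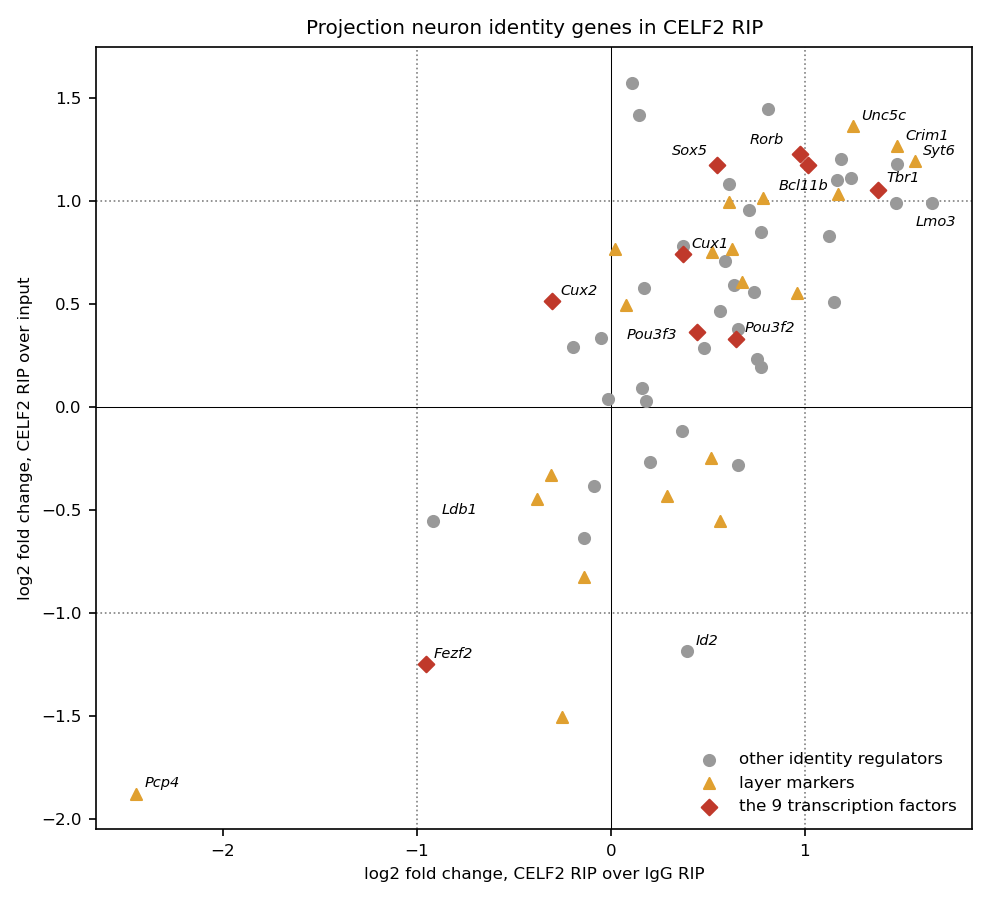
Log2 fold change of CELF2 RIP over IgG RIP (x axis) and over input (y axis) for the 9 transcription factors (red diamonds), 36 other identity regulators (grey circles) and 20 layer markers (orange triangles), with dotted lines at 2-fold. The axes share the CELF2 RIP libraries; Tbr1 and Bcl11b lie past both upper lines, and Fezf2 and Pcp4 lie at the lower left.

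Markers of cell types moved between the groups too. The 5 excitatory neuron markers, of which 3 are also among the 36 regulators, had a summed level of 1011 to 1173 CPM in CELF2 RIP, 489 to 616 in IgG RIP and 579 to 667 in input, with 2 of 5 called higher than IgG RIP and 1 of 5 higher than input. The 7 interneuron markers summed to 520 to 720, 299 to 347 and 494 to 506 CPM in the same order, with 3 called higher and 1 lower than IgG RIP, and the 7 striatal neuron markers, a cell type that makes Bcl11b, to 207 to 245, 133 to 155 and 199 to 222 CPM. Against input, 1 interneuron marker was called higher and 2 lower. Of the striatal markers, 2 were called higher and 0 lower than IgG RIP, and 0 higher and 1 lower than input. The 4 intermediate progenitor markers summed to 177 to 249, 75.5 to 80.7 and 81.6 to 87.9 CPM, with 2 of 4 called higher than IgG RIP and 1 of 4 higher than input. Most of that sum was Insm1 (means of 178, 57.8 and 55.2 CPM), and the defining marker Eomes was at 13.1, 9.77 and 14.9 CPM. The 6 radial glia markers went the other way (165 to 256, 454 to 498 and 572 to 615 CPM), with 3 of 6 called lower than each control. The 4 erythroid genes summed to 73.7 to 77.1, 282 to 451 and 709 to 916 CPM, and all 4 were called lower than IgG RIP. Astrocyte, oligodendrocyte-lineage, microglial, endothelial and thalamic lists had at most 1 gene higher and 1 lower than IgG RIP each. Against input, 2 of 5 oligodendrocyte-lineage, 2 of 4 endothelial and 2 of 4 tested microglial genes were lower and 1 microglial gene was higher. No listed marker was at 0 in all 9 libraries. The part of these shifts in the values of the 9 genes was not tested.

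Likeness over the 9 libraries was measured by root mean square difference of centred log2 CPM among 15258 genes. Of the 3 genes most like Tbr1, Txnip (0.141) is given here, and those most like Fezf2 were Ess2 (0.0951), Myc (0.118) and Sh2b2 (0.120). The likeness is a description of these 9 libraries.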

How the data were processed

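RNA was measured in 9 libraries, 3 per group, grouped by their titles. The authors deposited one table of estimated counts (expected counts) per RefSeq transcript row, made with kallisto 0.51.1 on mm10 per the labels, after rRNA depletion, fastp trimming and RiboDetector removal of rRNA reads; the deposited values were not normalized. The libraries were directional, but kallisto's strand setting is not given in the sources used here, so reads of overlapping antisense RNAs are not separated with certainty; overlapping non-coding genes held at most 51 counts in a library. Per the same notes DESeq2 1.46.0 and edgeR 4.4.0 were also used. All 9 columns of counts were used. Of the rows, 80.8% matched a gene of RefSeq GRCm38.p6 by accession, and 43.0% in the same version.

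Here, counts were summed per gene and rounded, protein-coding genes under 0.5 CPM in more than 6 of the 9 libraries were dropped, and the rest were fitted jointly with edgeR 4.0.16 (R 4.3.3): TMM scaling, glmQLFit and glmQLFTest, Benjamini-Hochberg adjustment. Calls needed an adjusted p under 0.01 and a change of 2-fold or more. Rows were fitted alike, and usage was tested with diffSpliceDGE. The standard error is the log2 fold change divided by the square root of F. Replicate pairs differed by more than sampling noise (chi-square per gene of 12.2 to 46.0). The procedure was tested on simulated data. For rows and usage the simulated replicates varied less than the real rows, so that test does not show how reliable the row and usage calls are. Alternatives used DESeq2 1.42.0, other scalings and filters, glmTreat, curated rows and fits that left out each library.

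Groups share replicate numbers in their titles. Deviations from group means correlated between CELF2 RIP and input with the same number (0.110, 0.117 and 0.122, all above 0.1 by a check made on these data). Between CELF2 RIP and IgG RIP they correlated at -0.056, 0.043 and 0.014, and between IgG RIP and input at 0.031, 0.065 and 0.038. Numbers were therefore taken to pair CELF2 RIP with input. The main fit used group means only and left this pairing out, so its standard errors and adjusted p values are unpaired. The replicate number entered only in the alternative fit with the replicate block.

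The 9 genes, the lists and the tests were chosen with earlier results of these data known. Named beside the 9 genes were the 6 regulators with the largest rise and the 6 with the largest fall over IgG RIP, the 3 layer markers at either end, the 3 genes most like Tbr1 and Fezf2, and Celf2. Id2, Pou3f1 and Pou3f4 were named after their values were seen. Some genes that this rule names are not reported here.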

Additional observations from a re-analysis of the deposited data

How the results depend on the processing

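Calls near the 2-fold limit moved with the processing. Of 2 members higher than IgG RIP, 1 was called with DESeq2's Wald test, DESeq2 size factors, upper quartile scaling, coding and noncoding genes, no filter, only the 2 groups compared or the replicate block, and 0 with total counts or glmTreat. Of 4 higher than input, 0 were called with total counts, upper quartile scaling, coding and noncoding genes, glmTreat or only the 2 groups compared. Of 2 higher than both controls, 1 was called with the replicate block and 0 with total counts, DESeq2 size factors, DESeq2's Wald test, upper quartile scaling, coding and noncoding genes, no filter, glmTreat or only the 2 groups compared. Fezf2 became the 1 member lower than IgG RIP, and lower than both controls, in place of 0, with each of those except glmTreat and the replicate block, and with curated rows only. With glmTreat 0 members were lower than input in place of 1. Leaving out each library in turn gave 1 to 3 members higher and 0 to 1 lower than IgG RIP, 1 to 4 higher and 1 lower than input, and 0 to 3 higher and 0 to 1 lower than both. The replicate block changed no other member call over input.

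For transcript rows, DESeq2's Wald test called 7 higher and 2 lower over IgG RIP, 6 and 4 over input, and 5 higher in IgG RIP over input. Gene-level scaling, chosen after seeing the data, called 1 higher in each of the 3 comparisons and 0 lower in IgG RIP over input. Total counts called 1 higher over IgG RIP and 0 lower in IgG RIP over input, and a minimum total of 10 counts 1 higher over IgG RIP. The replicate block called 1 row higher and 0 lower over IgG RIP, 1 lower than input and 0 lower in IgG RIP over input. Leave-one-out fits gave 0 to 5 rows higher and 0 to 1 lower than IgG RIP, 0 to 1 and 0 to 2 against input, and 0 to 1 and 0 to 2 for IgG RIP over input. Usage was called for 0 members over IgG RIP and 1 over input with the replicate block, and for 1 over input with rows of at least 2 CPM; leave-one-out fits gave 0 to 1 and 0 to 2.

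Small changes turned sign. With total counts, log2 values over input became -0.132 for Pou3f2, -0.106 for Pou3f3, -0.181 for Tshz2, -0.126 for Zfpm2 and -0.415 for Bhlhe22, and that over IgG RIP -0.0085 for Cux1. With coding and noncoding genes they became -0.0591 for Pou3f2, -0.0346 for Pou3f3, -0.110 for Tshz2, -0.0538 for Zfpm2 and -0.343 for Bhlhe22 over input, and -0.0166 for Bcl11b in IgG RIP over input. Upper quartile scaling gave -0.198 for Bhlhe22 over input. Bhlhe22 over input was also -0.0996 with DESeq2 size factors, -0.0998 with the Wald test, -0.0782 with no filter and -0.190 with only the 2 groups compared. With curated rows only, Sox5 in IgG RIP over input was -0.654 and Pou3f3 0.0424. Leave-one-out values ranged over IgG RIP from -0.291 to 0.227 for Neurod6, from -0.276 to 0.0937 for Emx1, from -0.151 to 0.130 for Bhlhe22 and from -0.591 to 0.0641 for Cplx3; the positive ends came without IgG RIP replicate 3, except for Bhlhe22 (CELF2 RIP replicate 2). They ranged over input from -0.107 to 0.181 for Bhlhe22, and for Pou3f3 in IgG RIP over input from -0.292 to 0.0486. The cause was not tested. Fezf2 was read at 10.3 to 29.3 CPM.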
